A study of Mus musculus with 2 samples.

Results

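The lysosome was followed here through 36 genes, of 31053 in the count tables, that encode its membrane proteins, its hydrolases and its proton pump. The genes were taken by name from a list of lysosomal genes without the cathepsins, and all 36 were found in both tables. They fall into 7 membrane genes, 12 hydrolase genes, 2 genes of cofactors (Psap and Grn), 1 regulator gene (Tfeb) and 14 genes of the vacuolar proton pump (V-ATPase). The pump genes comprise 5 of the membrane-embedded V0 sector, 7 of the cytosolic V1 sector and 2 accessory subunits.

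Lysosomes break down material that a cell has taken up or no longer needs. The V-ATPase pumps protons into the lumen, with the V1 sector splitting ATP and the V0 sector carrying the protons across the membrane, and the acid lumen is where the hydrolases work. Glycosylated membrane proteins line the inside of the membrane, and transporters and channels in it move lipids and ions out. Microglia, the resident macrophages of the retina, engulf debris and synaptic material and send it to lysosomes. The transcription factor TFEB, which belongs to the MiT/TFE family, binds a motif with the core CACGTG in the promoters of many lysosomal genes.

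Transcripts were counted with the 10x Chromium 3′ assay in single retinal cells of perfused C57BL/6 mice, sorted by flow cytometry on CD45, a leukocyte surface protein. The study compared 1 library labelled wildtype with 1 titled Igfbpl-/1, read here as the Igfbpl1-/- genotype that the labels' protocol names and called labelled knockout below. The design text describes 10 mice of each kind, matched for sex and aged 8 to 10 months, while the labels give neither the number of mice behind a library nor the altered allele. The tables held 2735 and 1785 cell barcodes with 11020717 and 7945713 unique molecular identifiers (UMIs), of which 2692 and 1761 cells were kept, and 1 barcode sequence occurred in both.

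Igfbpl1 itself went against the labels, with 2 counts in the library labelled wildtype and 29 in the library labelled knockout (in 2 and 27 barcodes). The groups are therefore named by their labels throughout. Each group is 1 library, so no difference below has a replicate check and no test was made. Intervals are 95% and cover counting error only. Values in pairs are given in the order labelled wildtype, labelled knockout.

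Cells were sorted into 4 myeloid gates by their UMIs of stated marker genes. Microglia (at least 3 UMIs of P2ry12, Tmem119, Gpr34, Siglech, P2ry13 and Sall1) numbered 2336 and 1445 cells. Spp1-high cells, with at least 10 UMIs of Spp1, Gpnmb, Fabp5 and Lgals3 of which at least 2 from Spp1 or Gpnmb, numbered 8 and 21. Border macrophages, which live in the coverings and around the vessels of nervous tissue, were gated on Mrc1, Pf4, Cd163, Lyve1, Cbr2 and Folr2 and numbered 21 and 15. Monocytes, gated on Plac8, Ly6c2, Ccr2, Chil3 and S100a4, numbered 12 and 37. Levels are in CPM, a gene's counts per 1000000 UMIs, both summed over the cells of a gate. In this assay a transcript is tagged at its 3′ end, so CPM of different genes can be set side by side without dividing by gene length.

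Some gates carried the markers of others. Microglia markers in the border gate stood at 16.3% and 14.6% of their level in microglia, in 17 of 21 and 13 of 15 cells, and all 5 monocyte markers were at 0 there. Of the border markers, Cd163 and Lyve1 were at 0 in that gate under the knockout label. The highest border marker made up 1660 of 2900 and 2390 of 2950 CPM of the border marker sum in that gate. In Spp1-high cells microglia markers stood at 18.1% and 8.93% of the microglial level, monocyte markers were at 0, and border markers summed to 0 and 3.98 CPM. Monocytes held 0.442% and 0.781% of the microglial level. Median UMI counts were 4037.5 and 4425 in microglia, 13794.5 and 9165 in Spp1-high cells, 3583 and 4317 in border macrophages and 6019 and 6568 in monocytes. Scrublet, a doublet caller, called 3 and 0 cells, 0.0673% of 4456, so few that doublets may remain.

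The promoters of these genes were examined for the TFEB core because many lysosomal genes are known to carry it. RefSeq promoters of GRCm38.p6, from 250 bases before to 50 bases after a start, were found for 31 of the 36 genes. The 6 letters CACGTG, which read the same on both strands, occurred in 10 of the 31 genes (32.3%), namely Lamp1, Mcoln1, Lgmn, Gla, Glb1, Naglu, Atp6v0b, Atp6v0d1, Atp6v0e and Atp6v1a. Among all 27025 genes with a promoter in the table the share was 8.09%, and among the 4868 of them counted at 20 CPM or more it was 13.2%. The longer palindrome TCACGTGA, which contains the core, occurred in 5 of the 31 (16.1%), against 1.12% of all genes and 2.98% of those at 20 CPM or more. That palindrome with a further G in front and C behind, the longest string searched, occurred in 0 of the 31 genes. Its share was 0.37% among all genes and 1.11% among those at 20 CPM or more. With shares this low, 31 genes are too few to tell whether the longest string is rarer or more common among them. A match is a string of letters, not a measured binding site.

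Lamp1, which encodes a major glycoprotein of the lysosomal membrane, had the densest set. The 90 bases just before its start on the plus strand, chr8:13159071-13159160, hold the core 4 times, shown in capitals. Of 32851 promoters, 8 (0.0244%) hold it 4 times or more.
Lamp1: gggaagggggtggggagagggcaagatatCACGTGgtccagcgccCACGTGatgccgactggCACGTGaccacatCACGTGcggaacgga

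Stretches of 30 bases around the core, in capitals, are shown for the most abundant gene of the set (Lgmn), for the gene with the lowest ratio between the libraries in microglia (Gla), and for a further hydrolase gene and a pump gene. They lie at chr12:102439124-102439153, chrX:134601215-134601244, chrX:134601182-134601211, chr9:114401018-114401047 and chr16:44139373-44139402. Glb1 is read from the plus strand and the others from the minus strand. For Lgmn, Gla and Atp6v1a, GENCODE M21 has a gene start further upstream than the RefSeq start used here.
Lgmn: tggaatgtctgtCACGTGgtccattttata
Gla, distal: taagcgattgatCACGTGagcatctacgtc
Gla, proximal: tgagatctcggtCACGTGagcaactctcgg
Glb1: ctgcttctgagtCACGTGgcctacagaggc
Atp6v1a: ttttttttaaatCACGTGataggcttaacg

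In microglia the 36 genes spanned more than 2 orders of magnitude, and their order was nearly the same in both libraries. Lgmn, which encodes legumain, an endopeptidase that cuts after asparagine, was highest at 3563 CPM (interval 3526 to 3600) and 3396 CPM (interval 3352 to 3441). Laptm5, a transmembrane protein of the lysosomes of blood-derived cells, stood at 1933 and 1756 CPM. Psap, the precursor of the saposins that help lipid hydrolases reach their substrates, stood at 1761 and 1811 CPM. Laptm5 lay above Psap with separate intervals in the library labelled wildtype, and the intervals met in the library labelled knockout (1724 to 1788 and 1779 to 1844).

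Lamp1 followed at 1335 and 1180 CPM, and Grn (progranulin) at 986 and 1055 CPM. Man2b1 (a lysosomal mannosidase, 835 and 852 CPM), Hexa (a subunit of hexosaminidase, 750 and 770 CPM), the pump gene Atp6v0b (706 and 727 CPM) and Cd68 (a macrophage glycoprotein related to the LAMP proteins, 622 and 637 CPM) came next in the same order in both libraries. Lamp2 stood at 560 and 538 CPM and Asah1, acid ceramidase, at 546 and 471 CPM, with intervals that met under the wildtype label (545.7 to 575.3 and 531.6 to 560.8).

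Pump genes other than Atp6v0b lay in the middle and lower part of the order. Atp6v1g1 (335 and 348 CPM) and Atp6v1f (273 and 296 CPM) of the V1 sector came first after Atp6v0b, followed by Atp6v0e (249 and 242 CPM) and the accessory genes Atp6ap2 (232 and 222 CPM) and Atp6ap1 (171 and 175 CPM). The hydrolase genes Gusb (220 and 197 CPM), Ppt1 (206 and 214 CPM) and Tpp1 (164 and 163 CPM) and the membrane gene Scarb2 lay among them. A low group of 10 genes, between 53.1 and 106 CPM in both libraries, held Atp6v1e1, Atp6v0d1, Naglu, Atp6v1d, Npc1, Atp6v1a, Atp6v1b2, Atp6v0a1, Atp6v1h and Neu1. Below it were Glb1 (43.1 and 45.9 CPM), Galc, Gla and Tfeb (26.7 and 26.5 CPM). Tfeb lay below Galc and Gla under the wildtype label and above them under the knockout label. The lowest genes were Mcoln1, a lysosomal cation channel (20.8 and 16.4 CPM), and Atp6v0c (13.2 and 11.02 CPM). Atp6v0c, the proteolipid of the proton-carrying ring, has annotated near-identical copies in the genome, so its counts are uncertain. Ppt1 (a palmitoyl thioesterase) overlaps Cap1 on the opposite strand and Glb1 overlaps Tmppe on the same strand, and their counts are uncertain for that reason.

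**Figure D1:**
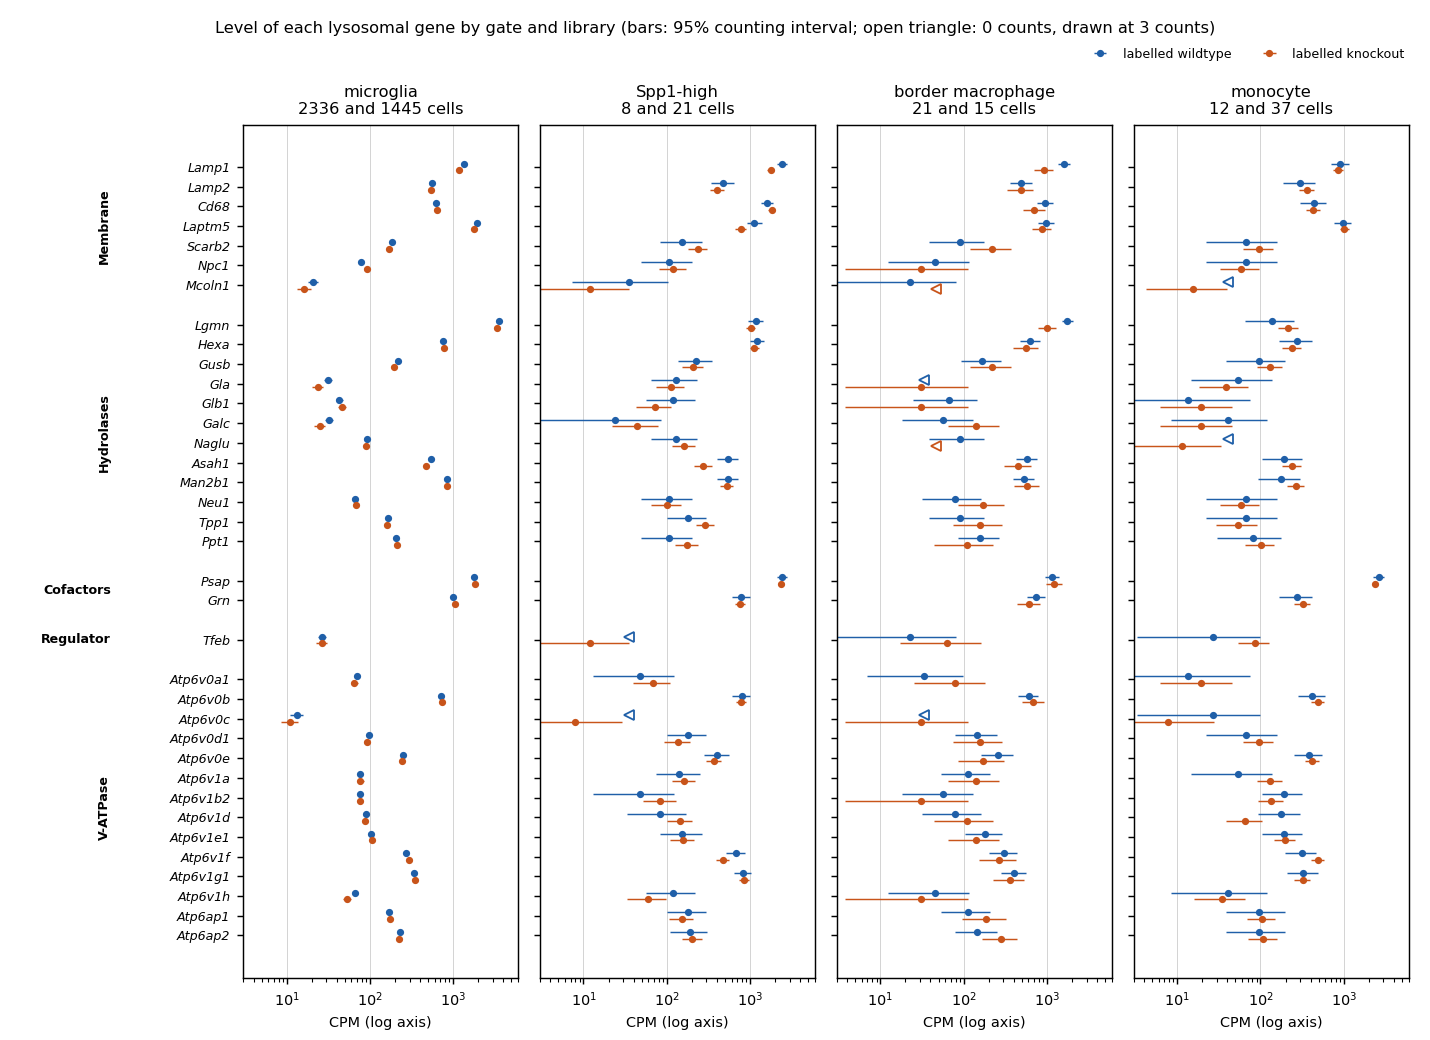
Level of each of the 36 genes in CPM (log axis) in the 4 gates, blue for the library labelled wildtype and orange for the library labelled knockout, with bars for the 95% counting interval and open triangles for genes at 0 counts drawn at the level of 3 counts. Lgmn is the highest gene in microglia (3563 and 3396 CPM) and lies at 136 and 216 CPM in monocytes, while Psap is highest in monocytes (2632 and 2389 CPM).

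Microglia of the libraries were compared by label, with the limit that Igfbpl1 counts went against it. Differences were small. Of 34 genes with enough counts, 26 lay within 1.1-fold, and ratios, taken as labelled knockout over labelled wildtype, ran from 0.743 to 1.16. The median log2 ratio was -0.01, beside -0.03 over all 6043 genes compared. By size, 0 of the 34 were higher under the knockout label by 1.2-fold or more (5.91% of all genes) and 3 were lower by as much (9.42% of all genes). No gene of the 34 reached 1.5-fold, which 0.414% of all genes reached upward and 0.645% downward. A share this near the background is not a result about lysosomal genes. The counting interval, which leaves out the spread between animals and between libraries, lay above 1 for 4 genes and below 1 for 9. UMIs of the retinal marker genes summed to 70.9 and 22.8 CPM in this gate, and their part in these ratios was not tested.

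Of 6 membrane genes compared, 2 had a ratio above 1 (33.3%, beside 42.4% of all genes), and the median log2 ratio was -0.088, beside -0.03 over all genes. Lamp1 had a ratio of 0.884 (interval 0.86 to 0.91) and Laptm5 of 0.908 (interval 0.888 to 0.93). Scarb2, whose protein carries glucocerebrosidase to the lysosome, stood at 186 and 171 CPM (ratio 0.921). Lamp2, which serves the fusion of autophagosomes with lysosomes, stood at 560 and 538 CPM. Cd68 was close to even at 1.02 (interval 0.984 to 1.06). Npc1, which exports cholesterol from the lysosome, was the exception at 78.8 and 91.6 CPM, the highest ratio of all 34 genes (1.16, interval 1.04 to 1.29).

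Among the hydrolases, 2 of 12 were lower by 1.2-fold or more under the knockout label (9.42% of all genes). Both were low in level, and 2 genes are too few to set the hydrolases apart from all genes. Gla, which encodes the galactosidase missing in Fabry disease, stood at 31.7 and 23.6 CPM (314 and 154 counts, ratio 0.743, interval 0.609 to 0.904). Galc, the galactosylceramidase that breaks down a lipid of myelin, stood at 32.5 and 25.1 CPM (322 and 164 counts, ratio 0.772, interval 0.636 to 0.935). Asah1 stood at 546 and 471 CPM (ratio 0.862, interval 0.824 to 0.901), and Gusb, a glucuronidase, at 220 and 197 CPM (0.898). The abundant enzymes were nearly even, with Lgmn at a ratio of 0.953, Hexa at 1.03 and Man2b1 at 1.02. Neu1 (a sialidase), Tpp1 (a tripeptidyl peptidase), Ppt1, Naglu (an enzyme of heparan sulfate breakdown) and Glb1 (a galactosidase) had intervals that included 1. Of the cofactors, Grn stood at a ratio of 1.07 (interval 1.04 to 1.1) and Psap at 1.03. Tfeb was at 0.993 on 264 and 173 counts.

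Pump genes were near even between the libraries. Of 13 compared, 1 was lower by 1.2-fold or more under the knockout label (9.42% of all genes). Atp6v1h, a V1 subunit that regulates the pump, stood at 66.9 and 53.1 CPM (662 and 347 counts, ratio 0.795, interval 0.696 to 0.906). Atp6v1f, another V1 subunit, leaned the other way at 273 and 296 CPM (1.08, interval 1.02 to 1.15). The other 11 pump genes compared had intervals that included 1, among them Atp6v1a, which encodes the subunit that splits ATP (76.8 and 77.0 CPM). Summed, the membrane genes held 0.474% and 0.439% of microglial UMIs (ratio 0.927, interval 0.914 to 0.941), the hydrolases 0.655% and 0.631% (0.964, interval 0.952 to 0.976) and the pump genes 0.256% and 0.258% (1.01, interval 0.988 to 1.03).

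**Figure D2:**
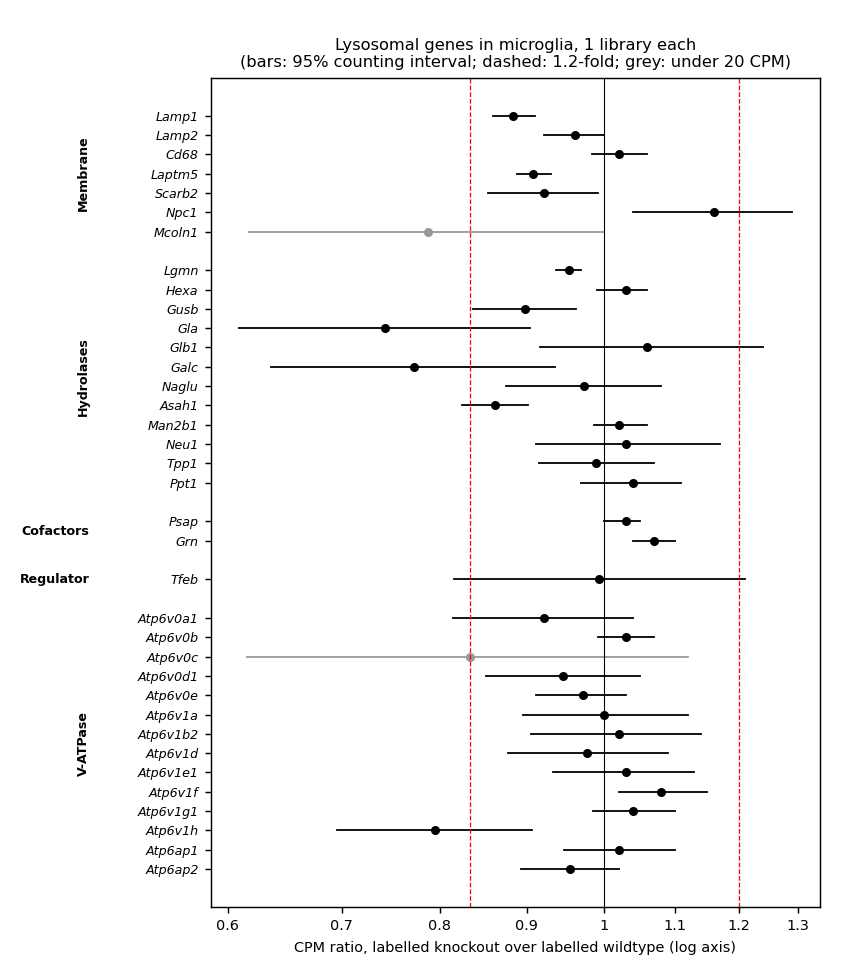
Ratio of CPM, labelled knockout over labelled wildtype, in microglia (log axis) for each gene, with 95% counting intervals, dashed lines at 1.2-fold and grey points for the 2 genes below the minimum level. Gla (0.743), Galc (0.772) and Atp6v1h (0.795) lie left of the lower dashed line, as does the grey point of Mcoln1 (0.787), and no gene lies right of the upper one.

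After each microglial cell was thinned to 1000 UMIs, Lgmn was counted in 96.2% and 93.6% of cells (99.5% and 99% unthinned), Laptm5 in 83.3% and 79.3% (97.7% and 96.7% unthinned), Lamp1 in 72.7% and 68.6% (96.3% and 95.5%) and Cd68 in 44% and 45.4% (84.8% and 83.5%). Retinal neurons and glia caught in the same sort should lack Cd68 and Laptm5. Their gate allowed under 3 UMIs of Tyrobp, Fcer1g and Csf1r. It thus left out cells with much microglial RNA, so the retinal cells are no independent background check. Their median depths were 4317.5 and 5536.5 UMIs. In them Cd68 was counted in 0 of 68 and 0 of 45 thinned cells (exact intervals up to 5.28% and 7.87%, with 2.86% and 1.85% unthinned) and Laptm5 in 1.47% and 2.22% (2.86% and 5.56% unthinned). The variance of thinned counts over their mean, which is 1 for pure counting noise, was 1.24 and 1.3 for Lgmn and 1.04 and 1.12 for Lamp1. With mean thinned counts of 3.66 and 3.28 for Lgmn and 1.35 and 1.24 for Lamp1, such values lie near 1 even where cells differ, so they give no measure of the spread between cells. Thinning left out 20 and 17 microglia and 2 and 9 retinal cells that were shallower.

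Spp1-high cells carried more of Cd68, Lamp1 and several pump genes and less of Lgmn than microglia of the same library. Of 22 genes with enough counts, 5 were higher by 1.5-fold or more in both libraries (14.2% of 1210 genes compared) and 3 were lower by as much in both (21.6%). The median log2 ratio of the 22 was 0.08 and 0.24, beside 0.10 and -0.02 over all genes compared. Of the 8 and 21 cells, 5 and 9 held over 3 times the median UMI count of their library.

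Cd68 stood at 622 and 637 CPM in microglia and at 1609 and 1825 CPM in Spp1-high cells, a ratio of 2.59 (interval 2.17 to 3.07) and 2.87 (interval 2.6 to 3.16). Lamp1 stood at 2402 and 1781 CPM there, ratios of 1.8 and 1.51 over microglia, and stayed past the 1.5-fold line in 9 of 15 alternative settings. With cells thinned to equal depth its ratios were 1.8 and 1.44. Laptm5 went the other way, at 1124 and 771 CPM against 1933 and 1756 CPM in microglia (ratios 0.582 and 0.439). Without cells over 3 times the median UMI count, which left 3 and 12 cells, Laptm5 turned to a ratio of 1.2 in the library labelled wildtype.

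Among hydrolases, Lgmn stood at 1171 and 1026 CPM in Spp1-high cells, ratios of 0.329 (interval 0.267 to 0.4) and 0.302 (interval 0.266 to 0.342). Man2b1 stood at 544 and 525 CPM (0.652 and 0.616). Hexa lay above its microglial level at 1219 and 1129 CPM (1.63 and 1.47) and missed the 1.5-fold line in 1 library. Asah1 was even in the library labelled wildtype (0.997) and lower in the other (0.583). Gla, with too few counts to be compared (11 and 28), stood at 130 and 111 CPM against 31.7 and 23.6 CPM in microglia. Naglu (130 and 163 CPM against 91.4 and 88.95 CPM) and Glb1 (118 and 71.6 CPM against 43.1 and 45.9 CPM) were also too low to be compared. Psap stood at 2449 and 2346 CPM (1.39 and 1.3).

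Of 8 pump genes compared, 3 were higher by 1.5-fold or more in both libraries (14.2% of the 1210 genes compared). Atp6v1g1, part of the stalk of the V1 sector, stood at 817 and 839 CPM against 335 and 348 CPM in microglia (ratios 2.44 and 2.41). Atp6v1f stood at 675 and 469 CPM (2.47 and 1.58), and Atp6v0e, a small V0 subunit, at 402 and 370 CPM (1.62 and 1.53). Atp6v0d1 (ratios 1.82 and 1.47) and Atp6v1e1 (1.49 and 1.46), the other 2 with raised ratios, missed that line in at least 1 library. Atp6v0b, the most abundant pump gene in microglia, was near even (1.12 and 1.07), as were the accessory genes Atp6ap1 and Atp6ap2 (1.04 and 0.865, 0.815 and 0.915). Of the 8 differences past the line in this gate, those of Cd68, Lgmn and Atp6v1g1 kept their side of the 1.5-fold line in each alternative that gave a value. The cell richest in lysosomal counts held 20.1% and 10.8% of all such counts of this gate. Tfeb and Atp6v0c had 0 counts under the wildtype label, where 3 counts come to 35.5 CPM.

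Border macrophages had less Laptm5 and Lgmn than microglia. Of 20 genes compared, 0 were higher by 1.5-fold or more in both libraries (8.18% of 831 genes) and 2 were lower by as much in both (16.6%). Laptm5 stood at 977 and 873 CPM (ratios 0.505 and 0.497), and Lgmn at 1763 and 1013 CPM (0.495 and 0.298). The median log2 ratio of the 20 genes was -0.39 and -0.16, beside -0.18 and -0.04 over all genes compared. Psap stood at 1157 and 1232 CPM, ratios of 0.657 and 0.68, with 1 of them short of the 1.5-fold line. Cd68 stood at 943 and 702 CPM (1.52 and 1.1), Asah1 at 573 and 452 CPM (1.05 and 0.961), and Hexa at 629 and 561 CPM (0.839 and 0.729). Gla under the wildtype label and Naglu and Mcoln1 under the knockout label had 0 counts, where 3 counts come to 33.7 and 46.8 CPM. Galc, with 5 and 9 counts, was at 56.1 and 140 CPM against 32.5 and 25.1 CPM in microglia. Microglia markers are part of this gate, as given above, and their part in these ratios was not tested. Only 4 and 2 border macrophages held no count of those markers, too few for any of the 20 genes to be compared.

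Monocytes stood apart from microglia in the hydrolases. Of 18 genes compared, 10 were lower by 1.5-fold or more in both libraries (22.2% of 1076 genes) and 2 were higher by as much in both (31.1%). The 10 included all 6 hydrolase genes compared (Lgmn, Hexa, Gusb, Asah1, Man2b1 and Ppt1), the membrane genes Lamp2 and Laptm5, Grn and Atp6ap2. The median log2 ratio was -0.95 and -0.59 for the 18 genes and -1.495 and -1.39 for the 6 hydrolases, beside 0.26 and 0.21 over all genes compared. Genes entered by the mean of both levels, so a gene high in microglia could enter on few monocyte counts. Gusb (7 and 34 counts) and Ppt1 (6 and 26 counts) did so. A gene low in microglia could enter only if much higher in monocytes. The count and median of the hydrolases thus rest partly on this rule, which all genes compared also passed. The sums given below take all 12 hydrolase genes.

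Lgmn was at 136 and 216 CPM in monocytes (10 and 56 counts), ratios of 0.0381 (interval 0.0183 to 0.07) and 0.0635 (interval 0.048 to 0.0825) over microglia. Hexa stood at 271 and 239 CPM (0.362 and 0.31), Man2b1 at 176 and 266 CPM (0.211 and 0.312), and Grn at 271 and 320 CPM (0.275 and 0.303). All of these lay below the levels in microglia in both libraries. Lgmn, Hexa, Asah1, Man2b1, Ppt1 and Grn stayed at least 1.5-fold lower in each alternative that gave a value, and Gusb, Lamp2 and Laptm5 did not. Hydrolase genes with too few counts to be compared went both ways. Gla lay above microglia on 4 and 10 counts (54.3 and 38.5 against 31.7 and 23.6 CPM). Neu1 was near even (1.03 and 0.848). Galc stood at 40.7 and 19.3 against 32.5 and 25.1 CPM. Tpp1 (0.413 and 0.332), Glb1 (13.6 and 19.3 against 43.1 and 45.9 CPM) and Naglu (0 and 3 counts) were lower. The 12 and 37 monocytes also held 2390 and 2720 CPM of the 4 Spp1-high markers, whose part was not tested.

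Psap went the other way. It was the highest of the 36 genes in monocytes, at 2632 and 2389 CPM, ratios of 1.49 and 1.32 over microglia. Lamp1, at 909 and 848 CPM (0.681 and 0.718), and Cd68, at 434 and 432 CPM (0.698 and 0.678), lay below microglia by less than 1.5-fold. Atp6v1e1, of the V1 stalk, stood at 190 and 197 CPM against 103 and 106 CPM (1.84 and 1.85), and Atp6v0e at 380 and 420 CPM (1.53 and 1.74). Atp6v0e missed the 1.5-fold line in 4 of 15 alternatives, with ratios of 1.22 to 1.43 under the wildtype label. Atp6v1f stood at 312 and 489 CPM (1.14 and 1.65), past the 1.5-fold line in 1 library only. Atp6v1g1 was near even (0.973 and 0.919). Atp6v0b, at 421 and 485 CPM (0.596 and 0.667), and Atp6ap2, at 94.98 and 108 CPM (0.409 and 0.487), lay below microglia. Atp6v1b2, with too few counts to be compared (14 and 35), stood at 190 and 135 CPM (2.51 and 1.76). Tfeb had 2 and 22 counts in monocytes, 27.1 and 84.8 CPM.

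**Figure D3:**
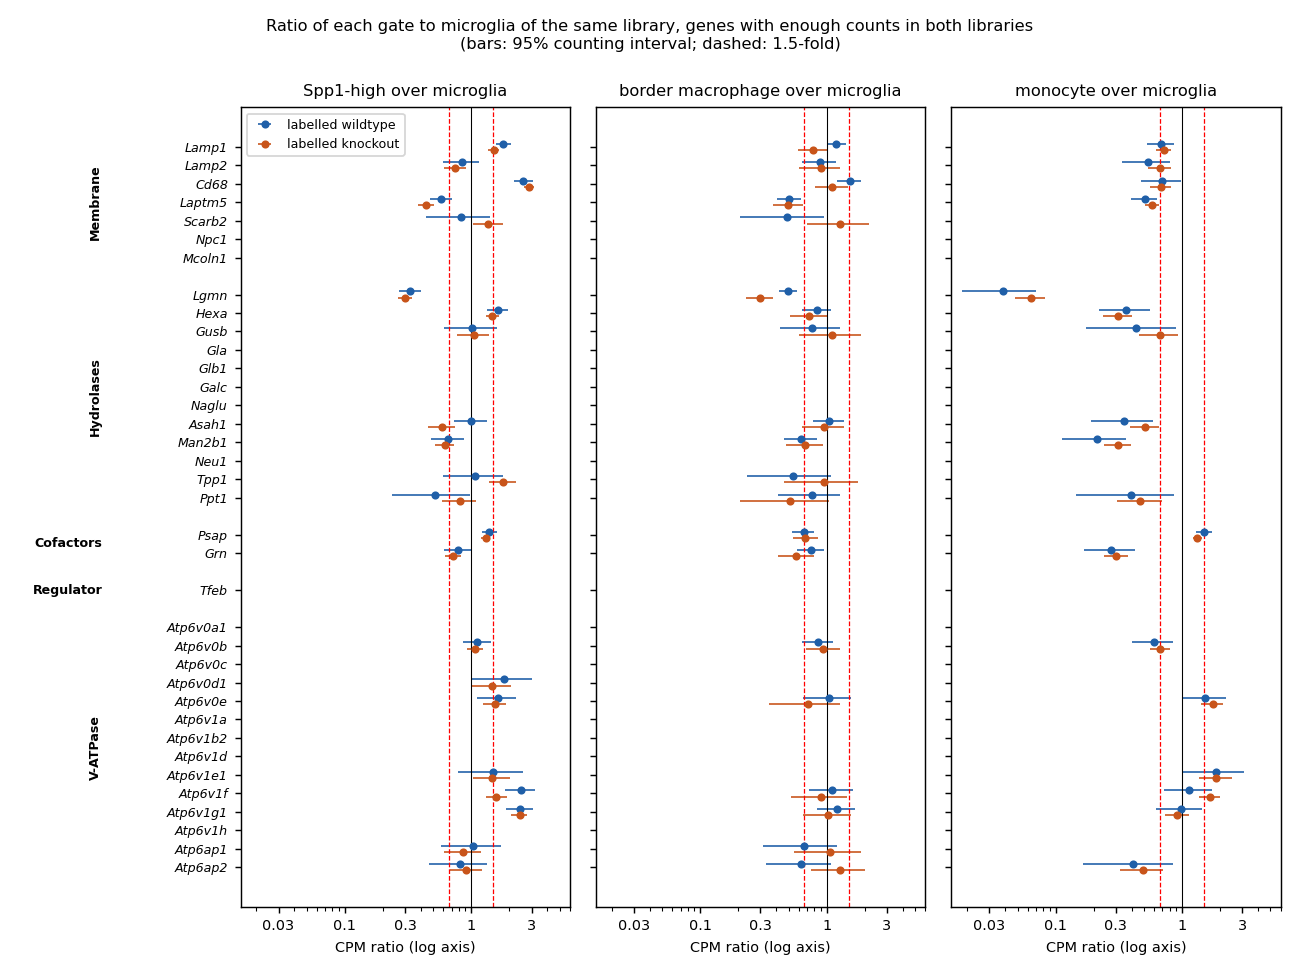
CPM ratio of each gate over microglia of the same library (log axis) for the genes with enough counts in both libraries, with 95% counting intervals and dashed lines at 1.5-fold. Cd68 (2.59 and 2.87) and Atp6v1g1 (2.44 and 2.41) lie right of the line in Spp1-high cells, and the compared hydrolases lie left of it in monocytes, with Lgmn farthest (0.0381 and 0.0635).

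The 3 groups of genes parted between the gates. Against microglia, Spp1-high cells held more UMIs in membrane genes (ratios 1.25 and 1.17) and pump genes (1.49 and 1.41) and fewer in hydrolases (0.687 and 0.652). Border macrophages were lower in membrane genes (0.88 and 0.735) and hydrolases (0.641 and 0.548), and their pump genes were even (0.970 and 1.03, intervals 0.846 to 1.11 and 0.884 to 1.2). In the 4 and 2 border macrophages with no microglia marker count, most log2 ratios were lower. Under the wildtype label they were -0.46 for membrane genes, -1.51 for hydrolases and -0.61 for pump genes. Under the knockout label they were -1.48 for membrane genes and -0.71 for pump genes. The hydrolase log2 ratio under the knockout label lay between -0.901 and -0.796 in each alternative, beside -0.867 with all cells. Monocytes were lower in membrane genes (0.582 and 0.643), lowest in hydrolases (0.182 and 0.22) and near even in the sum of pump genes (0.933 and 1.01, intervals 0.8 to 1.08 and 0.937 to 1.09), in which single genes went both ways.

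A single gene weighed heavily in each sum. Lgmn made up 54.4% and 53.8% of hydrolase counts in microglia and 11.4% and 15.5% in monocytes, and Laptm5 made up 40.8% and 40% of membrane counts in microglia. Without Lgmn, the hydrolase ratio was 1.11 and 1.06 in Spp1-high cells, 0.816 and 0.839 in border macrophages and 0.354 and 0.403 in monocytes. Without Laptm5, the membrane ratio in Spp1-high cells was 1.71 and 1.66. Without Atp6v0b, the pump ratio was 1.63 and 1.54 in Spp1-high cells and 1.06 and 1.15 in monocytes. So the lower hydrolase sum of Spp1-high cells rested on Lgmn, and that of monocytes did not. The Spp1-high sums also moved with the cells taken: without cells over 3 times the median UMI count the hydrolase log2 ratio was 0.31 and that of the pump genes 0.067 under the wildtype label, and with those that meet the microglia gate counted as microglia the membrane log2 ratios were -0.025 and -0.012.

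Cell by cell, the hydrolase share had a median of 0.652% and 0.632% of UMIs in microglia (quartiles 0.521% to 0.795% and 0.495% to 0.763%) and 0.121% and 0.119% in monocytes, whose highest cells reached 0.223% and 0.275%. All monocytes thus lay below the lower quartile of microglia. The pump share had medians of 0.249% and 0.250% in microglia, 0.304% and 0.326% in Spp1-high cells, 0.253% and 0.234% in border macrophages and 0.228% and 0.210% in monocytes, and its cells overlapped between all gates. The membrane share of Spp1-high cells ran from 0.261% to 1.14% and from 0.202% to 1.17%, and that of border macrophages from 0.191% to 0.787% and from 0.0316% to 0.451%, so these cells overlapped too.

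**Figure D4:**
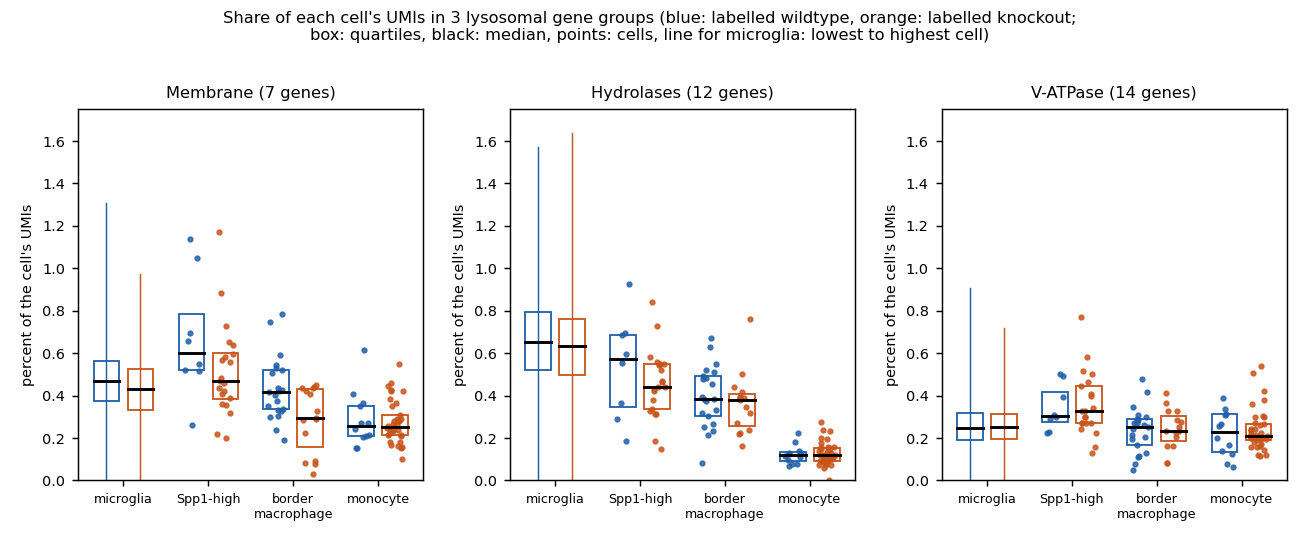
Share of each cell's UMIs in membrane, hydrolase and V-ATPase genes, in percent, by gate, blue for the library labelled wildtype and orange for the library labelled knockout, with boxes for quartiles, black lines for medians, points for single cells and, for microglia, a line from the lowest to the highest cell. Monocytes have median hydrolase shares of 0.121% and 0.119% against 0.652% and 0.632% in microglia, and pump shares overlap in all 4 gates.

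A list of 57 other lysosomal genes was set beside the 36. In microglia 45 could be compared between the libraries, of which 0 were higher by 1.2-fold or more (5.91% of all genes). Of the 45, 1 was lower by as much (9.42% of all genes), namely Ostm1, a partner of a lysosomal chloride transporter (ratio 0.822). Clcn7, that transporter, and Siae, a sialic acid esterase, had the highest ratios at 1.2 each, just under the line, and Lamtor3, of the complex that anchors mTOR signalling to the lysosome, was at 0.848.

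In Spp1-high cells 5 of 18 compared genes of this list were higher by 1.5-fold or more in both libraries (14.2% of all genes compared). They were Cd63, Lipa, Litaf, Npc2 and Atp6v1c1. Another 2 were lower by as much (21.6% of all genes compared), among them Pla2g15. Cd63, a membrane protein of late endosomes, stood at 581 and 637 CPM in microglia and 3692 and 3932 CPM in Spp1-high cells (6.35 and 6.18), and Lipa, the acid lipase, at 296 and 414 CPM (2.58 and 3.51). Pla2g15, a lysosomal phospholipase, stood at 71.0 and 59.6 CPM (0.363 and 0.26).

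In border macrophages 2 of 11 were higher (8.18% of all genes compared), Cd63 (1202 and 1621 CPM, ratios 2.07 and 2.55) and Lipa (1.67 and 2.78). Another 2 were lower (16.6% of all genes compared), among them Gm2a, whose protein lifts a ganglioside out of the membrane for hexosaminidase (0.534 and 0.498). In monocytes 2 of 11 were higher (31.1% of all genes compared), Gm2a (584 and 740 CPM, ratios 2.77 and 3.38) and Lamtor2 (2.02 and 1.78). Another 3 were lower (22.2% of all genes compared), among them Cd63. Cd63 had 0 counts under the wildtype label and stood at 212 CPM under the knockout label there (0.333).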

How the data were processed

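Raw count tables, 1 per library, were deposited by the authors as whole numbers of UMIs per gene and cell barcode with no normalization. The submitters' processing notes name Cell Ranger 3.1 and mm10; how reads were assigned by strand is not given in the sources used here. Barcodes with at least 500 UMIs, 250 genes and at most 15% mitochondrial counts were kept, less the Scrublet calls (scanpy 1.11.5). Gates used raw UMIs of the stated markers, after cells with at least 3 lymphocyte or neutrophil marker UMIs were left out, required at least 3 UMIs of Tyrobp, Fcer1g and Csf1r, and took the larger marker sum. Retinal cells had under 3 of these and at least 5 retinal marker UMIs. Another 207 and 139 cells met no gate.

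Counts were summed per gate and library. A gene was compared where the mean of both levels was at least 20 CPM and came to at least 10 counts in the smaller sum, in both libraries for gates. Sums carry exact Poisson intervals, ratios the exact (Clopper-Pearson) interval of the split of their counts, and differences between ratios a log-normal counting interval; a gene at 0 was taken at 3 counts. Called means a fold size (1.2 or 1.5), not a test. All 36 genes are reported, and of the other lysosomal genes the 2 highest and 2 lowest of each comparison and the most abundant, with genes behind a count of 5 or fewer named after their values were seen. Some genes of that list are not reported here. Members, lists and gates were chosen with earlier results of these data known. On counts simulated with Poisson noise alone, 95.2% of intervals held the true ratio for 5852 unchanged genes in the microglia comparison. For changed genes the share ran from 90.0% to 96.0%. Such counts hold no spread between cells, animals or libraries, so this checks the computation only. Promoters came from RefSeq (GRCm38.p6) and gene positions from GENCODE M21.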

Additional observations from a re-analysis of the deposited data

Results flagged for a closer look

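For 3 of 82 pairs of gene and gate, the ratio over microglia lay on opposite sides of 1 in the libraries and the counting interval of the difference left out 1. Pairs were taken where every count behind the ratios was at least 5, a lower minimum than that for the compared genes. These differences between 1 library and 1 other were not tested, and counting intervals alone left out 1 in 9 of the 82 pairs.

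Lamp1 in border macrophages stood above microglia under the wildtype label (1595 against 1335 CPM, ratio 1.19) and below under the knockout label (920 against 1180 CPM, ratio 0.779). The ratio of the ratios was 0.652 (interval 0.481 to 0.885). Scarb2 in border macrophages had ratios of 0.483 and 1.27 on 8 and 14 counts, a ratio of ratios of 2.64 (interval 1.1 to 6.31). Atp6v1d, a V1 subunit gene with too few counts to be among the compared genes in monocytes, had ratios of 1.98 and 0.753 there on 13 and 17 counts. The ratio of these ratios was 0.38 (interval 0.183 to 0.788).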

How the results depend on the processing

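Values were recomputed under 15 alternatives, of which the last 2 named here were added after the data had been seen: border macrophages and monocytes with no microglia marker count, and microglia without counts of other gates. Of the recomputed values, 2485 lay inside the counting interval (for counts of genes, within 1.5 times) of the reported value, 133 lay outside, and 1 ratio that was past its fold line (Laptm5) changed sign. Among all recomputed log2 ratios, past a fold line or not, 80 of 2469 had the other sign, 16 of them among the 315 sums. In microglia the count of genes at least 1.2-fold lower under the knockout label was 3 in each alternative, and no gene was higher. Of 22 gate differences of at least 1.5-fold, 13 kept their side in each alternative that gave a value.

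Log2 ratios and counts that moved follow, by setting. Scaling by the median of ratios shifted log2 levels by up to 0.26 (monocytes, labelled wildtype) and -0.19 (Spp1-high, labelled knockout). It gave -0.078 (membrane), -0.022 (hydrolases) and 0.042 (pump) between libraries in microglia, 0.39, -0.46 and 0.65 in Spp1-high cells labelled knockout, -1.04 (membrane) and -0.36 (pump) in monocytes labelled wildtype, and 1 gene higher in monocytes. Scaling without mitochondrial, ribosomal, Malat1 and gate genes gave 8 genes higher in Spp1-high cells, 0.32 (membrane) and -0.53 (hydrolases) there and -0.52 (membrane) and 0.14 (pump) in monocytes, all sums labelled knockout. Without cells over 3 times the median UMI count, 2 genes were higher and 1 lower in Spp1-high cells (8 compared), sums labelled wildtype were 1.07, 0.31 and 0.067 (membrane, hydrolases, pump), hydrolases labelled knockout -0.45, monocytes labelled knockout -2.38 (hydrolases) and -0.13 (pump), and Laptm5 reversed to 0.27 in Spp1-high cells labelled wildtype. With Spp1-high cells that meet the microglia gate counted as microglia, 2 and 9 remained, 3 genes were higher, and membrane, hydrolase and pump sums were -0.025, -0.78 and 0.79 labelled wildtype and -0.012, -0.96 and 0.70 labelled knockout. Equal weight per cell gave 2 genes higher and 1 lower in Spp1-high cells, sums of 0.51, -0.30 and 0.42 labelled wildtype and -0.47 (hydrolases) labelled knockout, and in monocytes 1 gene higher and -0.10 (pump, labelled knockout). Thinning to 1000 UMIs (mean of 20 draws) gave 3 higher and 1 lower, sums of 0.52, -0.29 and 0.41 labelled wildtype, -0.49 (hydrolases) labelled knockout, -0.072 for hydrolases between libraries in microglia, and in monocytes 1 gene higher and -0.13 (pump, labelled knockout). Without the cell with most member counts, 3 genes were higher in Spp1-high cells and 1 in monocytes, with -2.36 (hydrolases) and -0.14 (pump) in monocytes labelled knockout. A minimum of 5 counts gave 8 genes higher in Spp1-high cells (31 compared), and of 20 counts 1 higher in monocytes (14 compared). With no microglia marker count, 4 and 2 border macrophages remained, 0 genes were compared and 0 lower, sums were -0.46, -1.51 and -0.61 labelled wildtype and -1.48 (membrane) and -0.71 (pump) labelled knockout, and monocytes had 1 gene higher and -0.15 (pump, labelled knockout). The pump sum in monocytes labelled knockout thus lay on both sides of 0.

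No paired analysis was possible because each group is 1 library. The small gates limit what can be seen: 3 counts came to 35.5 and 11.9 CPM in Spp1-high cells, 33.7 and 46.8 CPM in border macrophages and 40.7 and 11.6 CPM in monocytes, so 14, 16 and 18 of the 36 genes were not compared there.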
